A study of Zea mays with 48 samples.

Results

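The C4 carbon cycle enzymes of the maize leaf (Zea mays) are described here by 6 transcripts, read by identifier out of 33309 genes in the deposited table. They are Zm00001d044099 (carbonic anhydrase), Zm00001d046170 (C4 PEP carboxylase), Zm00001d031899 (NADP-malate dehydrogenase), Zm00001d038163 (PPDK, pyruvate phosphate dikinase), Zm00001d000316 (NADP-malic enzyme) and Zm00001d028471 (PEP carboxykinase). The enzyme names come with the selection and not from the table, so only their levels could be set against them. All 6 passed the filter on low values.

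RNA was sequenced from leaves of the bzip60-2 mutant and of the inbred line W22 in 48 libraries, 3 for each of 16 groups. Each genotype was sampled at V5 (27 days after germination) and at V4 (20 days), and each stage at a maximum daily temperature of 31, 33, 35 or 37 °C with cooler nights. bZIP60 acts as a transcriptional regulator when unfolded proteins build up in the endoplasmic reticulum, and the study asks how this ties in with the response to heat. The leaf sampled was the newest fully expanded one, at its middle and without the midrib.

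The mutant is 1 allele set against 1 inbred line, and the labels do not describe the lesion. Its bZIP60 transcript was not analysed here. The 4 temperatures were held in 8 chambers, a pair for each, and the effects of temperature and of the chambers cannot be told apart. The lamina holds mesophyll and bundle sheath together, so fewer cells of a type and less RNA per cell cannot be told apart in any value below.

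In the C4 cycle, carbonic anhydrase turns CO2 into bicarbonate in mesophyll cells, and PEP carboxylase fixes it onto phosphoenolpyruvate (PEP). The resulting oxaloacetate is reduced to malate by NADP-malate dehydrogenase, and malate moves to the bundle sheath, where NADP-malic enzyme releases CO2 beside Rubisco. The pyruvate left over returns to the mesophyll, where PPDK makes PEP again. Maize also moves part of its carbon as aspartate, from which PEP carboxykinase releases CO2 in the bundle sheath.

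Values are FPKM (fragments mapped to a transcript, scaled to its length and to the library), which allow for transcript length, so levels can be set side by side between genes. Totals ran from 869999 to 941520 FPKM a library, and 24520 to 26641 genes were above 0. Size factors, the median ratio of a library to the geometric mean over genes, ran from 0.752 to 1.32. Group means of the size factor were 1.18 to 1.30 (bzip60-2, V5), 0.888 to 1.06 (bzip60-2, V4), 0.957 to 1.22 (W22, V5) and 0.758 to 0.871 (W22, V4), so that scaling by them shifts genotypes and stages against each other. Averaged over temperatures, the median gene was higher in bzip60-2 than in W22 by 0.20 at V5 and 0.19 at V4, and higher at V5 than at V4 by 0.30 in bzip60-2 and 0.29 in W22, all on the log2 scale of FPKM + 1. After scaling these medians lay within 0.03 of 0. Values are as deposited unless called scaled. The libraries also form sets that no label names: Zm00001d033132 lay between 0 and 1.29 FPKM in 14 libraries and between 60.5 and 324 FPKM in 34. The 14 are bzip60-2 at V4 and 31 °C and W22 at V4, except its replicate 3 at 37 °C, which stands apart from its partners. In bzip60-2 at V4 the sets thus part 31 °C from the 3 higher temperatures. But for that replicate, they also part the genotypes at V4 and 33, 35 and 37 °C, and the stages in W22. They part the stages in bzip60-2 at 31 °C as well. In these comparisons an effect of the sets cannot be told apart from that of temperature, genotype or stage. The plastid gene rbcL, of the large Rubisco subunit, was listed at 0 in 36 libraries and reached 0.53 FPKM at most in these poly(A) libraries, so it could not serve as a bundle sheath marker.

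The 6 transcripts were among the most abundant of the leaf in every library. Together they made up 3.64% to 5.11% of all FPKM. PPDK was the most abundant of all transcripts in each of the 48 libraries, and PEP carboxylase ranked between 2 and 4. Carbonic anhydrase ranked between 8 and 33, NADP-malic enzyme between 12 and 32, PEP carboxykinase between 6 and 65 and NADP-malate dehydrogenase between 31 and 53. Over the 16 groups the mean levels were 16406 FPKM for PPDK, 9216 for PEP carboxylase, 4874 for carbonic anhydrase, 3906 for NADP-malic enzyme, 2958 for PEP carboxykinase and 2457 for NADP-malate dehydrogenase. The 16 group means of carbonic anhydrase spanned 2.99-fold, those of PEP carboxylase 2.25-fold and those of PEP carboxykinase 2.18-fold. The spans were narrower for NADP-malic enzyme (1.68-fold), NADP-malate dehydrogenase (1.53-fold) and PPDK (1.44-fold). After scaling, the order of the spans was not the same. Scaled group means ran from 2419 to 6980 FPKM for NADP-malic enzyme and from 1482 to 3711 FPKM for NADP-malate dehydrogenase. They ran from 11149 to 23347 FPKM for PPDK and from 1740 to 4236 FPKM for PEP carboxykinase.

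**Figure D1:**
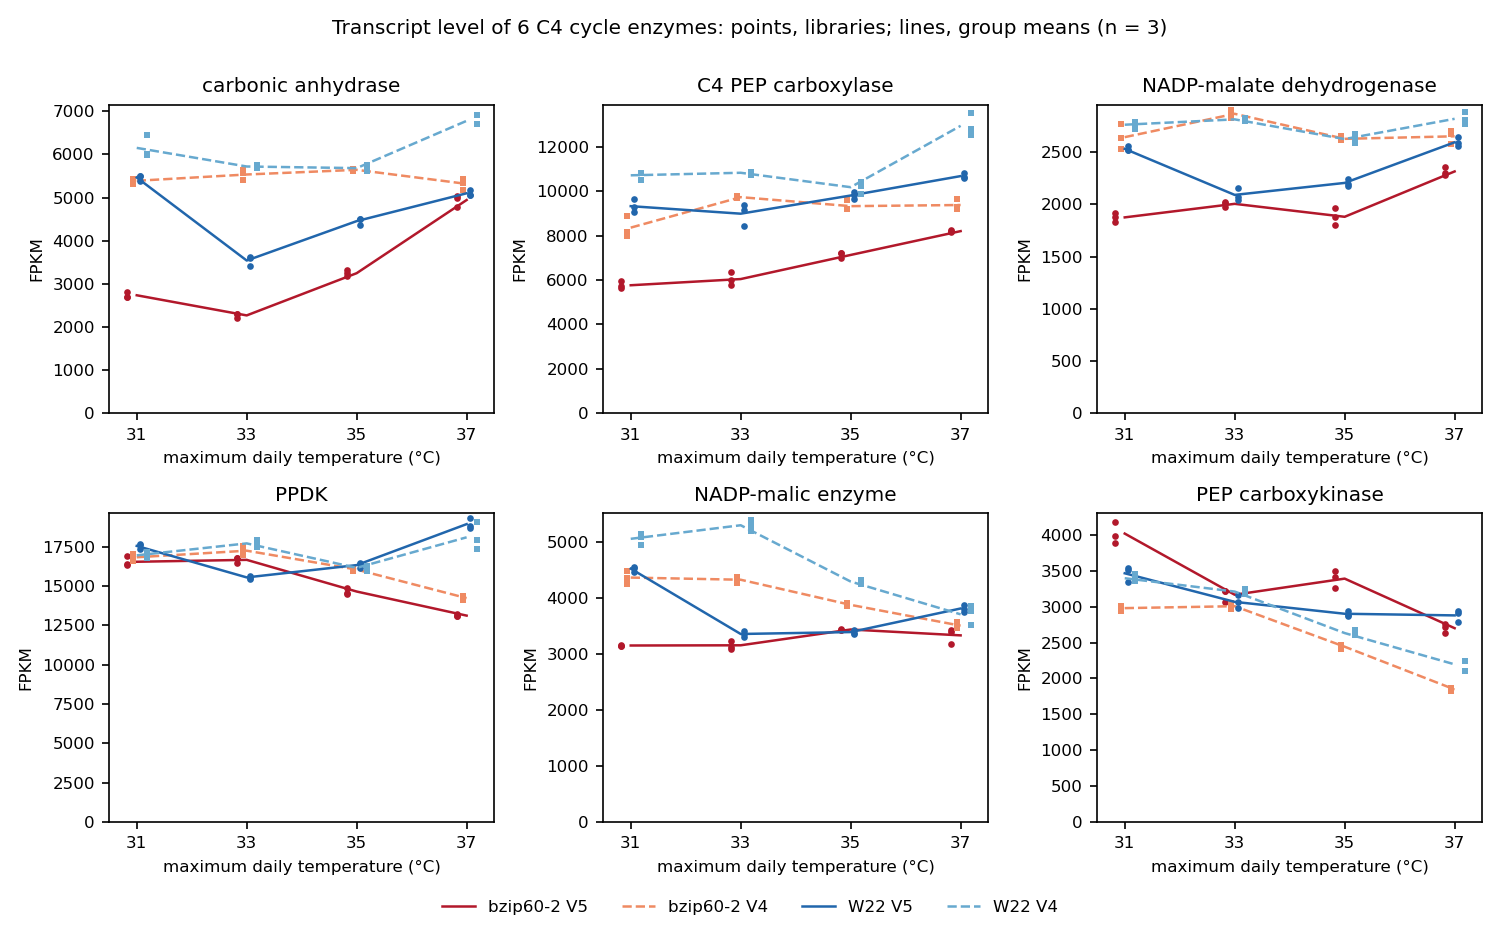
Transcript level in FPKM (vertical axes, from 0) of the 6 C4 cycle enzymes against maximum daily temperature in °C. Points are libraries and lines join group means (n = 3), with bzip60-2 in red shades and W22 in blue shades, V5 solid and V4 dashed; carbonic anhydrase in bzip60-2 at V5 is at 4944 FPKM at 37 °C, against 2736 FPKM at 31 °C, and PEP carboxykinase is lower at 37 than at 31 °C in all 4 lines.

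Each combination of genotype and stage gives a temperature series, and in each the moderated F test of limma over 33, 35 and 37 against 31 °C called all 6 enzymes (largest adjusted p = 0.0156). The same test called 72.8% of all 22794 genes tested in bzip60-2 at V5, 72.2% in bzip60-2 at V4, 81.0% in W22 at V5 and 66% in W22 at V4. Most transcripts of the leaf thus differed between temperatures by this test, so that a call alone says little about the enzymes. Calls rest on the spread between libraries within groups, pooled over all 16 groups, and not on that of the groups compared alone. The spread was small but uneven: the coefficient of variation of the 6 enzymes lay between 0.187% and 5.72% over the groups.

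At 37 against 31 °C in bzip60-2 at V5, 4 of the 6 enzymes were higher (against 20.8% of all genes) and 2 lower (against 32.8%). After size-factor scaling the counts were again 4 and 2, with 25.7% of genes higher and 25% lower. In bzip60-2 at V4, 1 enzyme was higher (33.5% of genes) and 3 were lower (21.7%), and after scaling 0 were higher (25.7%) and 5 lower (27.4%). W22 at V5 had 2 higher (21.9%) and 3 lower (22.3%), with 2 (21%) and 3 (23.7%) after scaling. In W22 at V4, 3 were higher (26.6%) and 2 lower (19.7%), and after scaling 1 was higher (22.6%) and 2 lower (24.8%). The median log2 change of the 6 was 0.19 in bzip60-2 V5 (-0.08 over all genes) and -0.13 in bzip60-2 V4 (0.08 over all genes). For W22 it was -0.03 at V5 (0.01 over all genes) and 0.06 at V4 (0.05 over all genes).

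The smaller steps gave other counts. At 33 against 31 °C, W22 at V5 had 0 enzymes higher (52.6% of genes) and 5 lower (12.0%), with 0 and 6 after scaling (25.8% and 25.2% of genes). PEP carboxylase was the enzyme not called there, at a log2 change of -0.05. At this step bzip60-2 V5 had 1 higher and 2 lower (22.5% and 18.1% of genes), with 0 and 2 after scaling (18% and 19.5%). For bzip60-2 V4 the counts were 2 higher and 0 lower (13.1% and 32.1%), with 6 and 0 after scaling (21.3% and 21%). W22 V4 had 1 higher and 2 lower (8.53% and 17.1%), with 3 and 0 after scaling (14.5% and 12.9%). At 35 against 31 °C, bzip60-2 V5 had 3 higher and 2 lower (18.2% and 22.8%), the same after scaling (20% and 19.2%). In bzip60-2 V4 there were 2 higher and 3 lower (22.9% and 22.8%), with 1 and 3 after scaling (22.5% and 23.3%). W22 V5 had 0 higher and 5 lower (35.0% and 19%), the same after scaling (25% and 26.4% of genes). W22 V4 likewise had 0 higher and 5 lower (28.4% and 15.6%), and 0 and 6 after scaling (20.7% and 22.6%). Some of the small V4 calls ended when a library was left out. At 33 °C in W22 these were PPDK (0.06, without either of replicates 1 and 2 at 31 °C or 2 and 3 at 33 °C), PEP carboxykinase (-0.08, without replicates 2 or 3 at 31 °C or 1 or 3 at 33 °C) and carbonic anhydrase (-0.10, without replicate 1 at 31 °C). At 35 °C they were NADP-malate dehydrogenase in W22 (-0.07, without replicates 2 or 3 at 31 °C or 1 or 3 at 35 °C) and carbonic anhydrase in bzip60-2 (0.07, without replicates 1 or 2 at 31 °C or any at 35 °C), with adjusted p by limma of up to 0.131 over these losses.

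**Figure D2:**
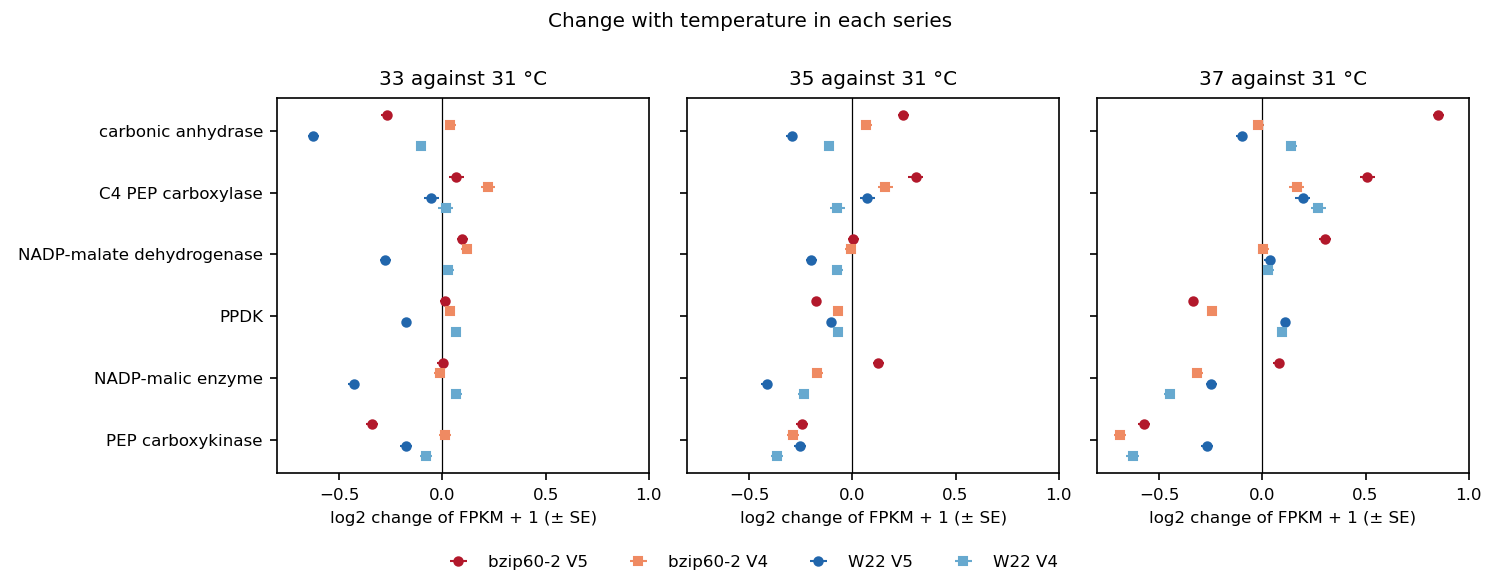
Log2 change of FPKM + 1 (horizontal axis, ± SE from limma) at 33, 35 and 37 °C against 31 °C for each enzyme (rows), in bzip60-2 V5, bzip60-2 V4, W22 V5 and W22 V4. At 37 °C all 4 points of PEP carboxykinase lie left of 0 (-0.27 to -0.69) and all 4 of PEP carboxylase lie right of it (0.17 to 0.51), while PPDK lies left of 0 in bzip60-2 and right of it in W22.

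Carbonic anhydrase, the entry step of the cycle, had its largest temperature change as deposited in bzip60-2 at V5 and 37 °C (0.85), while after scaling the change in W22 at V5 and 33 °C (-0.97) stood beside 0.96 for that one. Mutant leaves at V5 averaged 2736 ± 71.2, 2269 ± 50.6, 3248 ± 67.6 and 4944 ± 137 FPKM (± SD, n = 3) at 31, 33, 35 and 37 °C. W22 leaves at V5 averaged 5465 ± 61.9, 3541 ± 109, 4455 ± 80.1 and 5100 ± 63.0 FPKM over the same temperatures. Both V5 series had their lowest level at 33 °C. The V4 levels were flatter, at 5389 ± 65.6, 5535 ± 111, 5644 ± 17.1 and 5317 ± 135 FPKM in bzip60-2 and 6152 ± 251, 5721 ± 27.3, 5683 ± 65.0 and 6779 ± 122 FPKM in W22. In the order of the 16 means, the lowest 7 were all V5 groups, starting with bzip60-2 at 33, 31 and 35 °C, and each of the lowest 6 was apart from the next in its 3 libraries. From the seventh, W22 V5 at 37 °C, up to the fourteenth, W22 V4 at 33 °C, every neighbour overlapped the next. That order is as deposited. After scaling, bzip60-2 V4 at 37 °C (5008 FPKM) lay below W22 V5 at 37 °C (5262.5 FPKM).

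In bzip60-2 at V5 the libraries had 4788, 4998 and 5046 FPKM of carbonic anhydrase at 37 °C, against 2695, 2695 and 2818 FPKM at 31 °C. The groups did not overlap, and the level at 37 °C was 80.7% higher (log2 change 0.85 ± 0.03 SE, adjusted p = 2.13e-26 by limma). W22 at V5 had 5061, 5066 and 5173 FPKM at 37 °C, against 5506, 5495 and 5394 FPKM at 31 °C. Here the 37 °C libraries lay below the 31 °C libraries (a change of -6.68%, log2 -0.10, adjusted p = 0.00183). The responses of the genotypes at V5 differed by 0.95 ± 0.04 on the log2 scale (bzip60-2 minus W22, adjusted p = 2.13e-22), and by 1.08 after scaling. At V4 the change at 37 °C was -0.02 in bzip60-2 (adjusted p = 0.548), but -0.13 after scaling (adjusted p = 0.00117). In W22 at V4 it was 0.14 (adjusted p = 2.50e-05), a call lost after scaling (0.07, adjusted p = 0.114) and with only those groups in the fit (adjusted p = 0.0744).

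C4 PEP carboxylase, the enzyme of the first fixation of carbon, was higher at 37 than at 31 °C in all 4 series. Mutant leaves at V5 averaged 5767 ± 163, 6046 ± 302, 7132 ± 135 and 8205 ± 52.6 FPKM at 31, 33, 35 and 37 °C. At V4 they averaged 8362 ± 478.6, 9735 ± 61.9, 9330 ± 225 and 9381 ± 250 FPKM. W22 leaves averaged 9329 ± 280, 8991 ± 502, 9809 ± 159 and 10684 ± 133 FPKM at V5. The mutant V5 levels were the 4 lowest of all groups, and those at 31 and 33 °C overlapped each other. W22 leaves at V4 averaged 10719 ± 195, 10833 ± 75.3, 10184 ± 281 and 12948 ± 501 FPKM, the last being the highest group and apart from the next. Of the 15 pairs of neighbours in the order of the 16 means, 10 overlapped.

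The 37 °C libraries of bzip60-2 at V5 had 8155, 8201 and 8260 FPKM of PEP carboxylase, against 5631, 5723 and 5947 FPKM at 31 °C. The groups lay far apart, with a change of 42.3% (log2 0.51 ± 0.04 SE, adjusted p = 3.93e-15 by limma). In bzip60-2 at V4 there were 9191, 9288 and 9665 FPKM at 37 °C, against 8187, 7996 and 8904 FPKM at 31 °C. These groups did not overlap either, but the change of 0.17 (adjusted p = 0.000147) became 0.05 after scaling (adjusted p = 0.345). W22 had 10592, 10623 and 10836 FPKM at V5 and 37 °C, against 9630, 9281 and 9078 FPKM at 31 °C. W22 at V4 had 12549, 13510 and 12784 FPKM at 37 °C, against 10828, 10835 and 10494 FPKM at 31 °C. In W22 the changes were 0.20 at V5 (adjusted p = 2.10e-05) and 0.27 at V4 (adjusted p = 5.18e-08), and 0.28 at V4 without replicate 3 at 37 °C. The response in bzip60-2 exceeded that in W22 by 0.31 at V5 (adjusted p = 4.37e-06), while at V4 the difference was -0.10 (adjusted p = 0.127).

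NADP-malate dehydrogenase, which makes the malate that moves to the bundle sheath, had the log2 change nearest to 0 of the 6 at 37 °C in each series but bzip60-2 V5, as deposited. Mutant leaves at V5 averaged 1876 ± 39.8, 2005 ± 23.7, 1881 ± 81.5 and 2315 ± 36.4 FPKM at 31, 33, 35 and 37 °C. W22 leaves at V5 averaged 2532 ± 20.5, 2091 ± 61, 2205 ± 34.3 and 2594 ± 43.2 FPKM. At V4 all means lay between 2625 and 2867 FPKM, with 2644 ± 119, 2867 ± 35.5, 2627 ± 21.4 and 2652 ± 65.9 FPKM in bzip60-2 and 2763 ± 37.3, 2814 ± 16.0, 2625 ± 43.6 and 2819 ± 60.6 FPKM in W22. The 8 V4 groups took the 8 highest positions, and within these only 2 neighbouring pairs, bzip60-2 at 37 °C with W22 at 31 °C and W22 at 31 with 33 °C, were apart. That order is as deposited. After scaling, bzip60-2 V4 at 37 °C (2497 FPKM) lay below W22 V5 at 31 °C (2646 FPKM) and at 37 °C (2677 FPKM). In bzip60-2 at V5 the libraries had 2305, 2285 and 2356 FPKM at 37 °C, against 1876, 1915 and 1836 FPKM at 31 °C, which is 23.4% higher (log2 0.30, adjusted p = 3.04e-12 by limma). The log2 changes at 37 °C that were not called were 0.04 in W22 V5, 0.03 in W22 V4 and 0.01 in bzip60-2 V4. After scaling they were 0.02 in W22 V5, -0.05 in W22 V4 and -0.11 in bzip60-2 V4, the last called lower (adjusted p = 0.00789). At V5 the response in bzip60-2 exceeded that in W22 by 0.27 (adjusted p = 4.36e-07).

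PPDK, which regenerates the carbon acceptor, moved in opposite directions in the genotypes at 37 °C as deposited. At V4 the rise in W22 was small, and its call was lost after scaling. Mutant leaves averaged 16536 ± 291, 16658 ± 195, 14644 ± 189 and 13113 ± 75.2 FPKM at V5 and 31, 33, 35 and 37 °C. At V4 the mutant averaged 16822 ± 226, 17240 ± 270, 16040 ± 86.1 and 14225 ± 115 FPKM. In both stages its level was lowest at 37 °C. W22 leaves averaged 17543 ± 159, 15541 ± 109, 16324 ± 151 and 18929 ± 342 FPKM at V5, and 16945 ± 173, 17704 ± 232, 16148 ± 153 and 18091 ± 863 FPKM at V4. As deposited, the W22 groups at 37 °C were the highest 2 of the 16. The lowest 4 groups (bzip60-2 V5 at 37 °C, bzip60-2 V4 at 37 °C, bzip60-2 V5 at 35 °C and W22 V5 at 33 °C) were each apart from the next, and from bzip60-2 V4 at 35 °C upward all neighbours overlapped. This order changed after scaling. W22 V4 at 33 °C was then the highest (23347 FPKM, against 19530 FPKM in W22 V5 at 37 °C). Among the lowest, bzip60-2 V5 at 33 °C (12789 FPKM) then lay below bzip60-2 V4 at 37 °C (13396 FPKM).

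At V5 the mutant libraries had 13068, 13071 and 13200 FPKM of PPDK at 37 °C, against 16353, 16385 and 16872 FPKM at 31 °C. W22 at V5 had 18653, 19311 and 18821 FPKM at 37 °C, against 17665, 17363 and 17602 FPKM at 31 °C. So all 37 °C libraries lay below the 31 °C libraries in bzip60-2 (-20.7%, log2 change -0.33, adjusted p = 2.05e-16 by limma) and above them in W22 (7.89%, log2 change 0.11, adjusted p = 5.23e-05). At V4 the mutant had 14115, 14215 and 14344 FPKM at 37 °C, against 16597, 17049 and 16820 FPKM at 31 °C (log2 change -0.24, adjusted p = 2.74e-12). W22 at V4 had 19036, 17893 and 17344 FPKM at 37 °C, against 16794, 16906 and 17133 FPKM at 31 °C. Its replicate 3 at 37 °C was the lowest of the 3 and just above the 31 °C libraries. The change of 0.09 in W22 at V4 was called (adjusted p = 0.000398; 0.12 without that replicate), but not after scaling (0.02, adjusted p = 0.530) or with only those groups in the fit (adjusted p = 0.274). The difference between the genotypes in this response was -0.44 at V5 (adjusted p = 4.58e-15) and -0.34 at V4 (adjusted p = 3.09e-11), with -0.32 and -0.37 after scaling.

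NADP-malic enzyme, the main decarboxylase of the maize bundle sheath, fell at 37 °C in 3 of the 4 series. Mutant leaves averaged 3147 ± 14.2, 3150 ± 75.2, 3432 ± 6.40 and 3328 ± 133 FPKM at V5 and 31, 33, 35 and 37 °C, and 4359 ± 118, 4320 ± 58.3, 3872 ± 30.6 and 3501 ± 60.2 FPKM at V4. W22 leaves averaged 4517 ± 49.6, 3352 ± 59.4, 3386 ± 33.6 and 3807 ± 69.5 FPKM at V5. At V4 W22 averaged 5050 ± 102, 5292 ± 98.3, 4288 ± 34.3 and 3703 ± 173 FPKM. W22 V4 at 33 and 31 °C held the highest 2 positions, each apart from the next below. The 5 lowest groups, all V5, overlapped in turn, as did 10 of the 15 neighbouring pairs in all.

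The 37 °C libraries of W22 at V4 had 3510, 3754 and 3845 FPKM of NADP-malic enzyme, against 4935, 5129 and 5085 FPKM at 31 °C. W22 at V5 had 3878, 3739 and 3805 FPKM at 37 °C, against 4461, 4554 and 4538 FPKM at 31 °C. In bzip60-2 at V4 there were 3568, 3451 and 3483 FPKM at 37 °C, against 4350, 4245 and 4481 FPKM at 31 °C. In each of these 3 series the 37 °C libraries all lay below the 31 °C libraries. The change was -26.7% in W22 V4 (log2 -0.45, adjusted p = 3.79e-17 by limma), -15.7% in W22 V5 (-0.25, adjusted p = 4.56e-10) and -19.7% in bzip60-2 V4 (-0.32, adjusted p = 5.96e-13). Without replicate 3 at 37 °C the change in W22 V4 was -0.48. In bzip60-2 at V5 the libraries had 3427, 3379 and 3177 FPKM at 37 °C, against 3137, 3140 and 3163 FPKM at 31 °C. That rise of 0.08 (adjusted p = 0.0103) was lost without replicate 1 or 2 at 37 °C (adjusted p of up to 0.0906) and with only those groups in the fit (adjusted p = 0.106), and was 0.19 after scaling. The genotypes differed in this response by 0.33 at V5 (adjusted p = 3.59e-09).

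PEP carboxykinase, the second decarboxylase of the bundle sheath, was lower at 37 than at 31 °C in all 4 series, with and without scaling. Mutant leaves averaged 4021 ± 154, 3168 ± 86.4, 3393 ± 117 and 2701 ± 61 FPKM at V5 and 31, 33, 35 and 37 °C. At V4 they averaged 2981 ± 34, 3008 ± 44.6, 2443 ± 34.7 and 1847 ± 18.9 FPKM. As deposited, the mutant therefore held both ends of the order, V5 at 31 °C the highest and V4 at 37 °C the lowest, each apart from its neighbour. After scaling, W22 V4 at 33 °C was the highest (4236 FPKM, against 3177 FPKM in bzip60-2 V5 at 31 °C). The lowest was still bzip60-2 V4 at 37 °C (1740 FPKM). W22 leaves averaged 3467 ± 102, 3069 ± 95.8, 2903 ± 34.5 and 2880 ± 80.2 FPKM at V5, and 3398 ± 48.2, 3212 ± 36.1, 2634 ± 37.0 and 2197 ± 84.7 FPKM at V4. Of the 15 neighbouring pairs, 8 overlapped.

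At V4 the mutant libraries had 1852, 1864 and 1827 FPKM of PEP carboxykinase at 37 °C, against 2946, 3014 and 2985 FPKM at 31 °C. W22 at V4 had 2243, 2249 and 2099 FPKM at 37 °C, against 3356, 3451 and 3388 FPKM at 31 °C. The V4 groups were far from overlapping, and the change was -38% in bzip60-2 (log2 -0.69 ± 0.03 SE, adjusted p = 9.97e-22 by limma) and -35.4% in W22 (-0.63, adjusted p = 2.84e-20). At V5 the mutant had 2714, 2756 and 2635 FPKM at 37 °C, against 3992, 3884 and 4187 FPKM at 31 °C (log2 change -0.57, adjusted p = 1.99e-19). W22 at V5 had 2909, 2789 and 2941 FPKM at 37 °C, against 3352, 3543 and 3508 FPKM at 31 °C (-0.27, adjusted p = 7.15e-10). The W22 V5 change was the smallest of the 4, and the mutant fell more at that stage by 0.31 (adjusted p = 1.32e-07) while at V4 the genotypes differed by -0.06 (adjusted p = 0.300). With the 4 series as the units in a limma fit of group means, PEP carboxykinase was the 1 enzyme called at 37 °C, where 8.13% of genes were higher and 7.55% lower, at -0.54 ± 0.13 (adjusted p = 0.0126). That call was lost after scaling (adjusted p = 0.0749) and without the filter on low values (adjusted p = 0.0677). PEP carboxylase was at 0.29 in the same fit (adjusted p = 0.202). At 35 °C in that fit 0 of the 6 were called by limma (4.52% of genes higher and 3.44% lower), and 1 of them, PEP carboxykinase, had an unadjusted p of limma below 0.05. At 33 °C 0 were called as well (0.285% of genes higher and 1.55% lower), 0 of them at an unadjusted p below 0.05.

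The responses at 37 °C themselves differed between genotypes and between stages. Of the 6 enzymes, 4 had the more positive response in bzip60-2 than in W22 at V5 (12.5% of genes) and 2 the more negative (21.7%), and at V4 these counts were 1 (15.3%) and 2 (12.5%). Between stages, 5 had the more positive response at V5 than at V4 in bzip60-2 (11.9% of genes) and 1 the more negative (30.9%), against 2 (9.48%) and 1 (13.6%) in W22. After scaling the V4 count between genotypes was 0 and 2 (13.2% and 14.3% of genes), and the count between stages in bzip60-2 was 6 and 0 (19.4% and 16.3%). The other counts were the same after scaling, at 4 and 2 between genotypes at V5 (16.8% and 14.1%) and at 2 and 1 between stages in W22 (12.1% and 11.3%). With only those groups in the fit 1 of the 3 calls at V4 was left, and the share of all genes called in that smaller fit was not counted.

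The comparison of the mutant with W22 asks which of these levels differ between the genotypes. Averaged over 4 temperatures, 5 of the 6 enzymes were lower in bzip60-2 at V5 (against 11.5% of all genes) and 1, PEP carboxykinase, was higher (against 62.4%). At V4 all 6 were lower (against 12.2% of genes) and 0 higher (58.4%). After scaling all 6 were lower at both stages, where 27.9% of genes were lower and 24.1% higher at V5, and 30.6% lower and 28.4% higher at V4. The V4 call of NADP-malate dehydrogenase (-0.03, adjusted p = 0.0403 by limma) was the weakest and was lost on leaving out any of 12 of the 24 libraries, with adjusted p of up to 0.113. With the term for the library sets it was lost too (-0.02, adjusted p = 0.557), as was that of PPDK at V4 (-0.04, adjusted p = 0.0916). The sets differ within a group only in W22 V4 at 37 °C, by its replicate 3. The term thus carries the offset of that library from its partners over to other groups, and cannot test the sets themselves. At single temperatures of V5, 1 enzyme was higher and 5 lower at 31 °C (57.5% and 10.1% of genes), 1 and 3 at 33 °C (20.7% and 11.8%), 1 and 4 at 35 °C (36.5% and 9.63%) and 0 and 5 at 37 °C (44.1% and 9.06%). At V4 there were 0 higher and 5 lower at 31 °C (42.6% and 7.17%), 0 and 3 at 33 °C (35.2% and 8.04%), 0 and 3 at 35 °C (34.5% and 13.1%) and 0 and 6 at 37 °C (47.3% and 11.3%). After scaling 0 enzymes were higher at any of these points. At V5 the scaled counts of lower enzymes, from 31 up to 37 °C, were 6, 4, 5 and 6, where 23.5%, 16.6%, 18.5% and 20.2% of genes were lower and 22.7%, 11.5%, 13.7% and 17.3% higher. At V4 all 6 were lower after scaling at each temperature, where 19.7%, 20.1%, 23.3% and 24.9% of genes were lower and 15.9%, 15.9%, 21% and 21.9% higher.

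**Figure D3:**
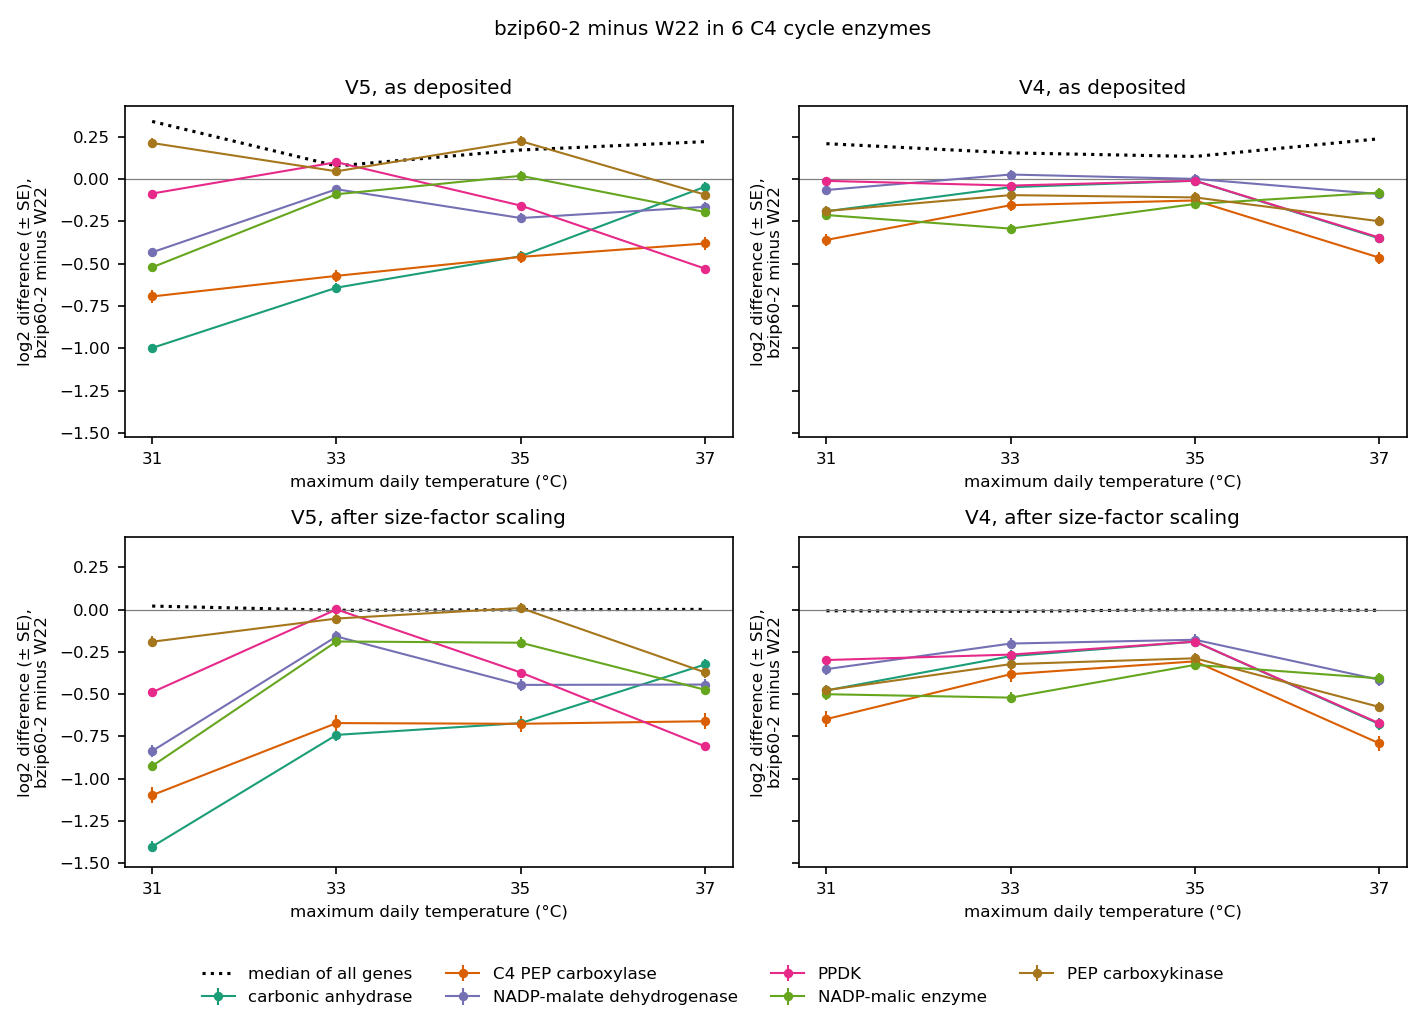
Log2 difference of FPKM + 1 between bzip60-2 and W22 (vertical axis, bzip60-2 minus W22, ± SE from limma) at each maximum daily temperature in °C for the 6 enzymes, at V5 (left) and V4 (right), as deposited (top) and after size-factor scaling (bottom). The dotted line is the median of all genes, which lies above most enzymes in the top panels (0.08 to 0.34) and near 0 in the bottom panels; carbonic anhydrase at V5 is at -0.05 at 37 °C, against -1.0 at 31 °C, as deposited.

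PEP carboxylase was lower in bzip60-2 at both stages and all 4 temperatures, and the libraries of the genotypes did not overlap in any of the 8 pairs of groups. At V5 the difference from W22 was -38.2% (31 °C, 5767 FPKM in bzip60-2 and 9329 FPKM in W22), -32.7% (33 °C), -27.3% (35 °C) and -23.2% (37 °C). At V4 it was -22.1% (31 °C), -10.1% (33 °C), -8.38% (35 °C) and -27.5% (37 °C, 9381 FPKM in bzip60-2 and 12948 FPKM in W22). With the term for the library sets the calls at V4 were lost at 33 °C (-0.13, adjusted p = 0.181 by limma) and 35 °C (-0.10, adjusted p = 0.296). The averages on the log2 scale were -0.53 at V5 (adjusted p = 4.11e-25 by limma) and -0.28 at V4 (adjusted p = 2.47e-16). With the 8 pairs of group means as the units, PEP carboxylase stood at -0.40 ± 0.11 SE (adjusted p = 0.0116), in a fit that called 4.78% of genes lower and 43.6% higher. Carbonic anhydrase was the other enzyme called there, at -0.34 ± 0.13 (adjusted p = 0.0438, lower in 8 of 8 pairs). Both calls were lost without the filter on low values (adjusted p of 0.230 for PEP carboxylase and 0.190 for carbonic anhydrase), and that of carbonic anhydrase on leaving out any of 10 of the 16 groups (adjusted p of up to 0.0988). Those 10 come in pairs, since leaving out either group of a pair removes the pair and gives the same estimate. After scaling, NADP-malic enzyme (-0.44, adjusted p = 0.0266) and NADP-malate dehydrogenase (-0.38, adjusted p = 0.0294) were called lower in that fit as well. The shares of all genes given above are for the fit as deposited, and those of the scaled fit were not counted.

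Carbonic anhydrase at V5 showed the widest difference between the genotypes, and it shrank with temperature. At 31 °C the level in bzip60-2 differed from W22 by -49.9% (log2 difference -1.0, adjusted p = 1.57e-28 by limma), then by -35.9% at 33 °C and -27.1% at 35 °C. At 37 °C the difference was -0.05 (4788 to 5046 FPKM in bzip60-2 and 5061 to 5173 FPKM in W22, adjusted p = 0.147), but it was -0.32 after scaling (adjusted p = 3.53e-10). At V4 the carbonic anhydrase differences were -0.19 at 31 °C (adjusted p = 1.47e-07) and -0.35 at 37 °C (adjusted p = 2.66e-14), with -0.05 at 33 °C and -0.01 at 35 °C, neither called. After scaling those V4 differences were -0.28 at 33 °C and -0.19 at 35 °C, both called.

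PPDK differed most between the genotypes at 37 °C. The difference from W22 was -30.7% at V5 (13113 FPKM in bzip60-2 and 18929 FPKM in W22, log2 -0.53, adjusted p = 3.50e-22 by limma). At V4 it was -21.3% (14225 FPKM in bzip60-2 and 18091 FPKM in W22, log2 -0.35, adjusted p = 1.16e-16). At 31 °C the V5 difference was -0.09 (adjusted p = 0.000662) and the V4 difference -0.01 (adjusted p = 0.716). After scaling PPDK was lower at 31 °C as well, with differences of -0.49 at V5 (adjusted p = 7.14e-21) and -0.30 at V4 (adjusted p = 7.02e-14). At 35 °C the V5 difference was -0.16 (adjusted p = 1.35e-07). At V4 it was -0.04 at 33 °C (adjusted p = 0.150) and -0.01 at 35 °C (adjusted p = 0.745), but -0.27 and -0.19 after scaling, both called. At V5 and 33 °C PPDK was higher in bzip60-2 by 0.10 (adjusted p = 0.000293), a call lost after scaling (0.00, adjusted p = 0.985).

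For NADP-malic enzyme at V5 the log2 difference of bzip60-2 from W22 was -0.52 at 31 °C (adjusted p = 2.03e-19 by limma), -0.09 at 33 °C, 0.02 at 35 °C and -0.19 at 37 °C. The 33 °C value lost its call without replicate 2 of bzip60-2 (adjusted p = 0.0507), and the 35 °C value reversed after scaling (-0.20, adjusted p = 4.70e-06). At V4 it was lower at all 4 temperatures, with differences between -0.08 at 37 °C and -0.29 at 33 °C, and the 37 °C call was lost without replicate 3 of W22 (-0.05, adjusted p = 0.0966). NADP-malate dehydrogenase at V5 was lower in bzip60-2 at 31 °C (-0.43, adjusted p = 1.50e-16), 35 °C (-0.23) and 37 °C (-0.16), and stood at -0.06 at 33 °C (adjusted p = 0.0901), which became -0.16 after scaling (adjusted p = 0.000392). At V4 its differences lay between -0.09 at 37 °C and 0.03 at 33 °C. The calls at 37 °C (lost without replicate 2 of bzip60-2, adjusted p = 0.0536) and 31 °C (-0.06, lost without replicates 1 or 2 of bzip60-2 or 2 or 3 of W22, adjusted p of up to 0.364) ended when a library was left out. With only the groups compared in the fit they were lost too (adjusted p by limma of 0.138 at 37 °C and 0.196 at 31 °C). So were the calls of NADP-malic enzyme at V4 and 37 °C (0.241) and at V5 and 33 °C (0.0559). After scaling NADP-malate dehydrogenase was called lower at all 4 temperatures of V4, at -0.35, -0.20, -0.18 and -0.41 at 31, 33, 35 and 37 °C (largest adjusted p = 4.88e-05).

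PEP carboxykinase was the 1 enzyme whose V5 average was higher in bzip60-2, and only as deposited. The difference from W22 was 15.9% at 31 °C (4021 FPKM in bzip60-2 and 3467 FPKM in W22, log2 0.21, adjusted p = 5.86e-08 by limma) and 16.8% at 35 °C. At 33 °C it was 3.24% (log2 0.05, adjusted p = 0.239). At 37 °C it was -6.18%, a call lost without replicate 3 of either genotype (adjusted p of up to 0.0557). The V5 average of 0.10 turned to -0.15 after scaling, the 31 °C difference to -0.19 and the 35 °C difference to 0.01, while the median gene stood 0.20 higher in bzip60-2 as deposited. At V4 PEP carboxykinase was lower in bzip60-2 at all 4 temperatures, with differences between -6.35% at 33 °C and -15.9% at 37 °C, also after scaling. With the term for the library sets the calls at 33 °C (0.00, adjusted p = 0.984) and 35 °C (-0.01, adjusted p = 0.909) were lost. That term rests on replicate 3 of W22 V4 at 37 °C alone.

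Stage was compared as V5 against V4, averaged over temperatures. In bzip60-2, 5 of the 6 enzymes were lower at V5 (against 15.2% of genes) and PEP carboxykinase was higher (0.38, against 67%), with the same counts after scaling (32.3% lower and 36.7% higher). The stages of PEP carboxykinase lay closer after scaling. Its scaled means at 31, 33, 35 and 37 °C were 3177, 2432, 2755 and 2297 FPKM at V5. At V4 they were 3038, 3389, 2475 and 1740 FPKM, so that at 33 °C V5 was the lower. In W22, 4 enzymes were lower (15.8% of genes), PEP carboxykinase was higher (65.7%), and PPDK was not called (-0.01, adjusted p = 0.225 by limma). After scaling all 6 were lower in W22 (34.3% of genes lower and 38.7% higher). Leaving out the third W22 library of 37 °C and V4, PPDK was called lower (-0.02, adjusted p = 0.0301), and with the term for the library sets it was called higher (0.07, adjusted p = 0.0275). The term rests on that same library alone, so the higher call cannot show a difference between stages.

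Carbonic anhydrase differed most with stage. In bzip60-2 it averaged 3299 ± 1058 FPKM at V5 and 5471 ± 155 FPKM at V4, and in W22 4640 ± 766 FPKM at V5 and 6084 ± 477 FPKM at V4 (SD over the libraries of 4 temperatures). With the 8 pairs of group means as the units it was lower at V5 in 8 of 8 pairs, at -0.60 ± 0.14 SE (adjusted p = 0.00413 by limma). NADP-malate dehydrogenase (-0.33, adjusted p = 0.00786) and PEP carboxylase (-0.33, adjusted p = 0.0258) were lower in 8 of 8 pairs as well, and NADP-malic enzyme in 7 of 8 (-0.29, adjusted p = 0.0318). These 4 calls compare with 9.42% of genes lower and 53.7% higher in that fit. PEP carboxykinase was higher by 0.25 in 7 of 8 pairs (adjusted p = 0.0461), but stood at -0.10 after scaling, and PPDK was at -0.05 (adjusted p = 0.729). Without the filter on low values the calls of PEP carboxylase (adjusted p = 0.262), NADP-malic enzyme (adjusted p = 0.143) and PEP carboxykinase (adjusted p = 0.147) were lost. Leaving out 1 group ended them too, for any of 8 groups for PEP carboxylase (adjusted p of up to 0.0617), 8 for NADP-malic enzyme (0.0901) and 10 for PEP carboxykinase (0.110). These groups come in pairs as well, since leaving out either group of a pair gives the same estimate.

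Ratios between enzymes of the same library do not depend on how libraries are scaled to each other, and 4 were fixed, each with an exact two-sided sign-flip permutation test over 8 pairs of group means for genotype and for stage (8 tests, smallest possible p = 0.00781). The ratio of PEP carboxykinase to NADP-malic enzyme, the balance of the decarboxylases, was higher at V5 than at V4 in 8 of 8 pairs, by 0.54 on the log2 scale or 1.45-fold (exact p = 0.00781, adjusted 0.0313). At V5 it was 1.28 ± 0.044, 1.01 ± 0.019, 0.989 ± 0.034 and 0.812 ± 0.019 in bzip60-2 (± SD) at 31, 33, 35 and 37 °C and 0.767 ± 0.014, 0.915 ± 0.013, 0.857 ± 0.0017 and 0.756 ± 0.015 in W22. At V4 it was 0.684 ± 0.023, 0.696 ± 0.010, 0.631 ± 0.0075 and 0.528 ± 0.011 in bzip60-2 and 0.673 ± 0.0068, 0.607 ± 0.0048, 0.614 ± 0.0055 and 0.595 ± 0.047 in W22. Mutant leaves at V5 and 31 °C thus had more PEP carboxykinase than NADP-malic enzyme transcript per length, and every W22 group and every V4 group had less. Between genotypes this ratio differed by 0.16 (7 of 8 pairs, exact p = 0.0859, adjusted 0.115).

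**Figure D4:**
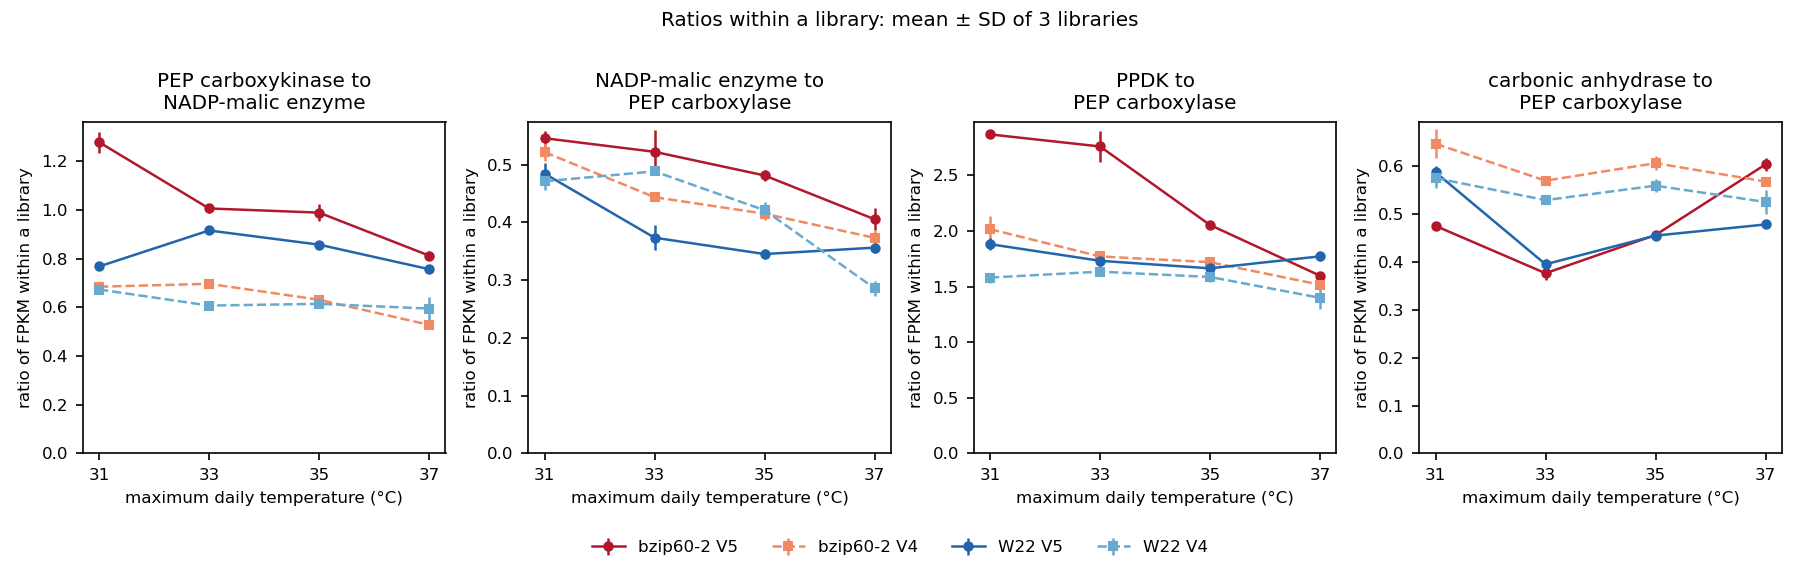
Ratio of FPKM of an enzyme pair within a library (vertical axes, from 0) against maximum daily temperature in °C, as mean ± SD of 3 libraries for bzip60-2 V5, bzip60-2 V4, W22 V5 and W22 V4. The ratio of PPDK to PEP carboxylase in bzip60-2 V5 is 1.6 at 37 °C, against 2.87 at 31 °C, and that of NADP-malic enzyme to PEP carboxylase is lower at 37 than at 31 °C in all 4 lines.

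PPDK to PEP carboxylase, the enzymes that make and use the acceptor, was higher at V5 than at V4 in 8 of 8 pairs, by 0.28 or 1.21-fold (exact p = 0.00781, adjusted 0.0313). It was higher in bzip60-2 than in W22 in 7 of 8 pairs, by 0.27 (exact p = 0.0391, adjusted 0.0625). At V5 the ratio was 2.87 ± 0.034, 2.76 ± 0.14, 2.05 ± 0.039 and 1.6 ± 0.0044 in bzip60-2 at 31, 33, 35 and 37 °C, against 1.88 ± 0.053, 1.73 ± 0.088, 1.66 ± 0.013 and 1.77 ± 0.042 in W22. The mutant ratio was thus the higher of the pair at 31, 33 and 35 °C and the lower at 37 °C. Set at 37 against 31 °C, the ratio differed by -44.3% and -24.7% in bzip60-2 at V5 and V4, and by -5.81% and -11.6% in W22 at V5 and V4. With 4 series an exact test cannot go below p = 0.125, so these are values only.

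NADP-malic enzyme to PEP carboxylase, decarboxylation against fixation, was lower at 37 than at 31 °C in all 4 series. The ratio changed by -25.7% and -28.5% in bzip60-2 at V5 and V4, and by -26.4% and -39.3% in W22 at V5 and V4. Genotype gave 0.21 (6 of 8 pairs higher in bzip60-2, exact p = 0.0391, adjusted 0.0625) and stage 0.04 (adjusted 0.672). Carbonic anhydrase to PEP carboxylase was lower at V5 by 0.27 in 6 of 8 pairs (exact p = 0.0313, adjusted 0.0625), and the genotypes differed by 0.06 (adjusted 0.455). At 37 against 31 °C that ratio differed by 27% and -12.1% in bzip60-2 at V5 and V4, and by -18.5% and -8.7% in W22 at V5 and V4.

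Across the 16 group means on the log2 scale the enzymes varied together to different degrees, described here with no test since groups share genotype, stage, chambers and library scale. Carbonic anhydrase and NADP-malate dehydrogenase gave the highest Pearson correlation of the 15 pairs (r = 0.92), followed by carbonic anhydrase with PEP carboxylase (0.89) and NADP-malate dehydrogenase with PEP carboxylase (0.82). PEP carboxykinase ran against these, with r of -0.49 to PEP carboxylase, -0.48 to carbonic anhydrase and -0.47 to NADP-malate dehydrogenase, but after scaling these were 0.39, 0.37 and 0.45. PPDK was only loosely tied to carbonic anhydrase (0.23) as deposited, against 0.82 after scaling.

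Among 13398 genes with a mean of at least 5 FPKM, the gene most like each enzyme over the 16 group means was Zm00001d021370 for carbonic anhydrase (r = 0.97), Zm00001d003975 for PEP carboxylase (0.94) and Zm00001d013013 for NADP-malate dehydrogenase (0.98). It was Zm00001d032301 for PPDK (0.88), Zm00001d010523 for NADP-malic enzyme (0.97) and Zm00001d008318 for PEP carboxykinase (0.92). The table gives these genes no names. NADP-malate dehydrogenase had 47 genes at r of at least 0.95, carbonic anhydrase 8, NADP-malic enzyme 3, and PEP carboxylase, PPDK and PEP carboxykinase 0. These counts are as deposited and were not made after scaling. With scaled values the same nearest genes passed 0.95 for PEP carboxylase (r = 0.977) and PPDK (0.981), while that of PEP carboxykinase stood at 0.941.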

How the data were processed

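Leaf poly(A) RNA was sequenced by BGI, per the labels' protocols. The authors deposited FPKM, 1 column per library. Their tools included RSEM 1.2.12, Bowtie2 2.2.5, HISAT and HISAT2 2.0.4, per the submitters' processing notes, which give no step. The genome build is not given in the sources used here. Absolute depth is unknown, and the size of 1 read in low genes gave relative depths of 0.783 to 1.07. The handling of reads that match several genes is not given, and no enzyme had values identical to another gene.

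Computed here were log2(FPKM + 1) values of 22794 of 33309 genes (at least 1 FPKM in at least 3 libraries), fitted with limma 3.58.1 in R 4.3.3 (16 group means, empirical Bayes with trend). P-values are two-sided, adjusted by Benjamini-Hochberg over all genes, with a threshold of 0.05, and "called" means below it. Fold changes are on the log2(FPKM + 1) scale. Further fits used group means as units, and sign-flip tests used 4 ratios, adjusted over 8 tests. The fit was tested on simulated data with independent noise in each library. That setting had no effects of chambers or of library scale, so it cannot speak to either. Alternatives were no filter, a pseudocount of 0.1, size-factor scaling, a replicate block, a library-set term, smaller fits and left-out libraries or groups. Figures were drawn with matplotlib 3.10.9 in Python 3.11.15.

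The rule for named genes took all 6 enzymes and the most correlated gene of each; comparisons at 33 and 35 °C are given mainly as counts. The members, lists and library sets were chosen with earlier results of these data known. Other genes of the cycle were not analysed here, because 0 of 30432 nuclear identifiers matched the RefSeq table at hand. The labels say both that a replicate came from several plants and that 1 sample was taken from each of 3 plants, so p-values measure the spread between these libraries, which may be partly technical. Replicate numbers were not found to pair libraries.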

Additional observations from a re-analysis of the deposited data

Results flagged for a closer look

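Differences between genotypes or stages in the response to 37 against 31 °C passed the threshold of limma for these enzymes, each on the log2 scale with Benjamini-Hochberg adjustment over all genes.

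At V5, the response in bzip60-2 minus that in W22 was 0.95 for carbonic anhydrase (adjusted p = 2.13e-22), 0.31 for PEP carboxylase (4.37e-06), 0.27 for NADP-malate dehydrogenase (4.36e-07) and 0.33 for NADP-malic enzyme (3.59e-09). It was -0.44 for PPDK (4.58e-15) and -0.31 for PEP carboxykinase (1.32e-07). These 6 directions were the same after scaling.

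The same difference at V4 was -0.34 for PPDK (adjusted p = 3.09e-11 by limma), -0.16 for carbonic anhydrase (0.000924) and 0.13 for NADP-malic enzyme (0.00636). The last was lost after scaling (0.09, adjusted p = 0.126), with the library-set term (0.08, adjusted p = 0.215) and with only those groups in the fit (adjusted p = 0.125), where carbonic anhydrase was lost too (adjusted p = 0.0536). For carbonic anhydrase and PPDK the stages can be read side by side: the genotypes' responses differed by 0.95 at V5 and -0.16 at V4 for carbonic anhydrase, and by -0.44 and -0.34 for PPDK. Whether the V5 difference itself differs from the V4 difference was not tested.

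In bzip60-2, the V5 response minus the V4 response was 0.87 for carbonic anhydrase (adjusted p = 2.97e-21 by limma), 0.34 for PEP carboxylase (7.79e-07), 0.30 for NADP-malate dehydrogenase (4.62e-08), 0.40 for NADP-malic enzyme (3.19e-11), 0.12 for PEP carboxykinase (0.0204) and -0.0927 for PPDK (0.0123). The sign for PPDK turned after scaling (0.13, adjusted p = 0.00155). The call for PEP carboxykinase was lost without replicate 2 of bzip60-2 V5 at 31 °C or at 37 °C (adjusted p of up to 0.0820) and with the library-set term (0.02, adjusted p = 0.834).

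In W22, the V5 response minus the V4 response was 0.36 for PEP carboxykinase (adjusted p = 7.07e-09 by limma), 0.20 for NADP-malic enzyme (6.42e-05) and -0.24 for carbonic anhydrase (3.19e-06). Carbonic anhydrase thus differed between stages in both genotypes, with the larger change at V5 in bzip60-2 and the more negative one at V5 in W22.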

How the results depend on the processing

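The pseudocount of 0.1 changed no call of the 198 enzyme results or 12 counts, and neither did the replicate block in the 168 results and 12 counts it was run on. With the replicate block, 6 (V5) and 4 (V4) enzymes were called at 37 against 31 °C in bzip60-2, and 5 (V5) and 5 (V4) in W22, where that fit called 53.4%, 55.1%, 44.2% and 46.2% of all genes in the same order. Replicate numbers did not pair libraries: over 360 pairs of same-numbered libraries the correlation of deviations lay between -0.0941 and 0.0960, with 0 over 0.1. The counts of enzymes that moved by more than 1.5 times were the 5 enzymes called at 37 °C in W22 V4, which became 3 after size-factor scaling and 3 with only the groups compared in the fit, and the 3 called for the genotype difference in response at V4, which became 1 with only the groups compared. The shares of all genes called were not counted in the fits with only the groups compared or with 1 library left out. The 552 counts with 1 library left out stayed within 1.5 times.

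Size-factor scaling reversed 16 log2 values. For temperature these became, at 33 °C, -0.0308 (PPDK, bzip60-2 V5), -0.0400 (NADP-malic enzyme, bzip60-2 V5), 0.13 (NADP-malic enzyme, bzip60-2 V4) and 0.00333 (PEP carboxykinase, W22 V4), at 35 °C -0.0757 (PEP carboxylase, W22 V5), and at 37 °C -0.11 (NADP-malate dehydrogenase, bzip60-2 V4) and -0.0457 (the same, W22 V4). For genotype they became, for PEP carboxykinase at V5, -0.19 at 31 °C, -0.0529 at 33 °C and -0.15 on average, for NADP-malic enzyme -0.20 at V5 and 35 °C, and for NADP-malate dehydrogenase at V4 -0.20 at 33 °C and -0.18 at 35 °C. For stage they became -0.23 (PEP carboxykinase, W22 average), -0.10 (PEP carboxykinase, group means) and 0.13 (PPDK, response in bzip60-2).

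The library-set term reversed 9 values, to -0.00637 (carbonic anhydrase, bzip60-2 V4 at 33 °C), 0.0210 and 0.00309 (PPDK and NADP-malate dehydrogenase, bzip60-2 V4 at 35 °C), 0.0513 and 0.0026 (PPDK and PEP carboxykinase, genotype at V4 and 33 °C), 0.0799 (PPDK, genotype at V4 and 35 °C), 0.0682 (PPDK, stage in W22), 0.00437 (PEP carboxykinase, genotype difference in response at V4) and -0.0137 (PPDK, stage difference in response in W22). Leaving out 1 group reversed PEP carboxykinase for genotype (9.66e-06 without either V4 group at 37 °C), PPDK at 33 °C (0.0153 without bzip60-2 V5 at 31 °C, 0.0590 without W22 V5 at 33 °C), NADP-malate dehydrogenase at 33 °C (0.0417 without W22 V5 at 31 °C, 0.0594 without W22 V5 at 33 °C) and carbonic anhydrase at 35 °C (0.0847 without W22 V5 at 31 °C, 0.0128 without W22 V4 at 35 °C).

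Leaving out 1 library turned the sign of 10 values near 0, none of them called. Their ranges were -0.0176 to 0.0155 and -0.0314 to 0.00754 (NADP-malic enzyme at 33 °C, bzip60-2 V5 and V4), -0.0277 to 0.0348, -0.0390 to 0.0255 and -0.0260 to 0.0385 (NADP-malate dehydrogenase, bzip60-2 V5 at 35 °C, V4 at 35 °C and V4 at 37 °C), -0.0359 to 0.000277 (carbonic anhydrase, bzip60-2 V4 at 37 °C), -0.00966 to 0.0140 and -0.0551 to 0.00944 (NADP-malate dehydrogenase at V4, genotype at 35 °C and genotype difference in response), and -0.0137 to 0.0534 and -0.00721 to 0.0230 (PPDK and NADP-malate dehydrogenase, stage difference in response in W22). The cause of these changes was not tested. Without the filter on low values 14 calls were lost. Other settings ended calls with the sign kept: 10 after size-factor scaling (18 were gained), 10 with the library-set term (2 gained) and 13 with only the groups compared. Leaving out 1 library ended a call in 43 refits of a single result and gave a new call in 4. Leaving out 1 group ended a call in 36 such refits.

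Each group has 3 libraries, the counts behind the FPKM are unknown, and FPKM give shares of a library, so that only relative levels are shown.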
